A study of Mus musculus with 8 samples.

Results

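10 genes of inflammation that are followed in studies of disc degeneration were read across the 4 groups: the cytokines Il1b, Il1rn, Il6 and Tnf, the chemokines Ccl2, Ccl3, Cxcl2 and Cxcl12, and the enzymes Ptgs2 and Nos2. They are 10 of 22180 genes with a probe set of their own on the array, and each was read from its 1 single-gene probe set. They were picked by name, with earlier results of these data known. A filter on low values, a mean over the 8 arrays of at least 6.21 (log2, the 30th percentile of the gene means), was passed by 8 of the 10 and by 15526 genes in all. Il6 and Cxcl2 did not pass and were not tested. The RNA was that of thoracic annulus fibrosus, the outer fibrocartilage of the intervertebral disc, taken from Black 6 mice. WT mice and ENT1-null mice, which lack exons 2 to 4 of Slc29a1, the gene for the nucleoside carrier ENT1, were studied at 2 and at 6 months, with 2 arrays in each of the 4 groups. The deletion is given for the whole animal, and the labels name no further treatment. Each array held a pool of 5 to 6 annulus tissues, and the labels leave unsaid if the 2 pools in each group drew on different mice, so that the p-values measure the spread between these pools.

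Interleukin 1 beta and tumour necrosis factor are cytokines of the first line of inflammation. They act through receptors that switch on NF-kB, a transcription factor whose target genes include further cytokines, chemokines and the enzymes for prostaglandins and nitric oxide. In the disc these products are known to raise matrix proteases and to draw in leukocytes, and the same genes are expressed by myeloid cells of blood and bone marrow. Adenosine, which ENT1 carries across the cell membrane, is known to dampen several of these signals through its receptors.

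In the ENT1-null annulus at 6 months Il1b, Il1rn, Tnf, Ccl3 and Cxcl12 were higher than in WT, by between 0.81 and 2.14 on the log2 scale, while Ccl2, Ptgs2 and Nos2 did not pass the test. Il1b had the largest difference, 4.40-fold. Of the 8 tested genes 5 were thus called higher and 0 lower at 6 months (limma, adjusted p below 0.05), where 38.8% of all 15526 genes tested were called, 21.2% higher and 17.6% lower. At 2 months 0 of the 8 passed (5 had an unadjusted p below 0.05), against 0.683% of all genes in either direction, 0.296% higher and 0.386% lower. The median difference of the 8 genes was 0.33 at 2 months and 0.88 at 6 months (log2), beside −0.04 and −0.03 over all genes tested. On the same arrays 16 of 16 neutrophil markers (median 2.53) and 12 of 14 markers of monocytes and macrophages (median 1.47) were higher in ENT1-null at 6 months, and their part in these rises was not tested. The genotype itself was checked by Slc29a1, which was lower in ENT1-null by 1.41 at 2 months and 1.53 at 6 months (log2), with the arrays of the genotypes apart at both ages, and passed at both (limma adjusted p = 0.00724 and 3.5e-04, at 2 months in 5 of 8 fits without 1 array). Array medians lay between 6.77 and 6.82. Paired within their group, arrays correlated at r = 0.983 to 0.984 across the tested genes, which are not independent replicates.

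The levels of the 10 genes on the 8 arrays are plotted by age and genotype.

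**Figure D1:**
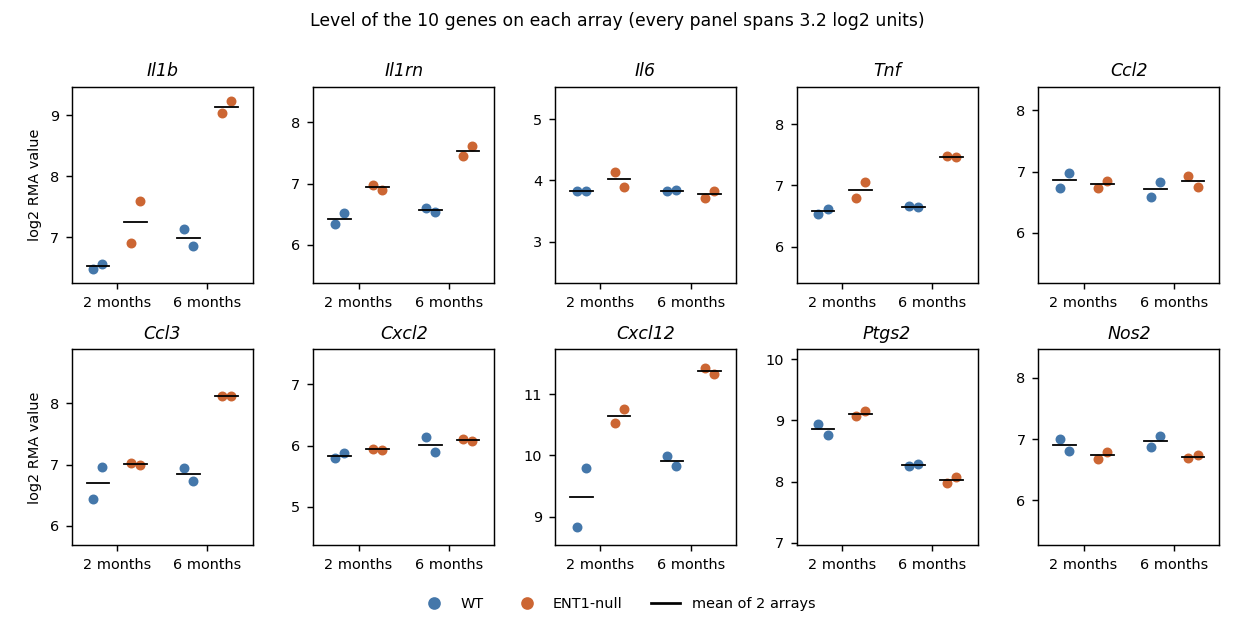
Log2 RMA value (vertical axis) of each of the 10 genes on the 8 arrays, by age, with WT in blue, ENT1-null in orange and a bar at the mean of the 2 arrays; every panel spans the same number of log2 units but starts at its own level, so that panels compare differences and not levels. Both 6 month ENT1-null arrays lie above the other 6 for Il1b, Il1rn, Tnf, Ccl3 and Cxcl12, and below them for Ptgs2.

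The promoters of 5 of the genes are shown because their genes took different courses on these arrays: Il1b and Tnf rose together at 6 months, Cxcl12 was high in ENT1-null at both ages, Ptgs2 fell with age in ENT1-null, and Il6 stayed under the filter. Each stretch gives, 5′ to 3′, the 250 bases before the start of transcription, from RefSeq on build GRCm38.p6, and the motif search also covered the 50 bases after it. Capitals mark matches on either strand to the NF-kB consensus, to the C/EBP core TTGCNNAA, to the AP-1 site TGANTCA and to the TATA box TATAAA.
Il1b (chr2:129371140-129371389, minus strand): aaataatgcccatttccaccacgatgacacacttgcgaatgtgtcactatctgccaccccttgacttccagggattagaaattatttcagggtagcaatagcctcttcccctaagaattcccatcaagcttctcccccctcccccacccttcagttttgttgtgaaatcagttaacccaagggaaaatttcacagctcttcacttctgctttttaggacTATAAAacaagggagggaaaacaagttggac
Tnf (chr17:35202008-35202257, minus strand): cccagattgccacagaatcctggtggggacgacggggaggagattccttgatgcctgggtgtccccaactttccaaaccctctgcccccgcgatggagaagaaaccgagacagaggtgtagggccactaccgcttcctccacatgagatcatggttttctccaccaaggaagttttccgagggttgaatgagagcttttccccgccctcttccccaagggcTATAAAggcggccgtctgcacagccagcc
Cxcl12 (chr6:117168285-117168534, plus strand): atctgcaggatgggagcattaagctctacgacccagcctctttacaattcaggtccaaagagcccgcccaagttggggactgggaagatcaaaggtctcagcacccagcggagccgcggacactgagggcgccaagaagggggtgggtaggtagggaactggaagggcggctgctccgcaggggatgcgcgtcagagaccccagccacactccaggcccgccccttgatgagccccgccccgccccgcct
Ptgs2 (chr1:150099781-150100030, plus strand): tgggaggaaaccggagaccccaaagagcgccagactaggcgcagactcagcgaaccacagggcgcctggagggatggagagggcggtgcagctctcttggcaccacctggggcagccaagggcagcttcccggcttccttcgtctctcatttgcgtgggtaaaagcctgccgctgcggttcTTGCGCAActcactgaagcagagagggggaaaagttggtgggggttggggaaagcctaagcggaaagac
Il6 (chr5:30012864-30013113, plus strand): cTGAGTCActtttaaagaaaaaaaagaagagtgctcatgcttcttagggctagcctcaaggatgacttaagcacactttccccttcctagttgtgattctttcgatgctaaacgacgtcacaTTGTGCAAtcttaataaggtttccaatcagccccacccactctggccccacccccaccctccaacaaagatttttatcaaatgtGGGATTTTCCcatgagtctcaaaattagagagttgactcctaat

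Counting back from the start of transcription, the Il1b and Tnf windows each held a TATA box, at −31 and −29, and no other of these motifs. The Ptgs2 window held a C/EBP core at −69, and the Cxcl12 window held none of the 4 motifs. The Il6 window held an NF-kB match at −44, a C/EBP core at −128 and an AP-1 site at −249. RefSeq windows were matched for 8 of the 10 genes (10 windows, 3 of them for Il1rn), and those of Ccl2 and Nos2 were not among them. Over the 10 windows the NF-kB consensus was in 2, those of Il6 and Cxcl2, the C/EBP core in 2, the AP-1 site in 2 and the TATA box in 3. The TATA box match in an Il1rn window lay after the start of transcription, at 14 to 19, on the opposite strand. Among all 32851 RefSeq windows, 8.46% held the NF-kB consensus, 10.8% the C/EBP core, 7.81% the AP-1 site and 13.6% the TATA box. These are letter matches in a short window and describe the sequence alone.

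Il1b encodes interleukin 1 beta, which is made as an inactive precursor and cleaved by inflammasome caspases. Its level was 6.48 and 6.57 (log2) on the 2 month WT arrays and 6.92 and 7.59 on the 2 month ENT1-null arrays. The 6 month values were 7.14 and 6.86 for WT against 9.04 and 9.23 for ENT1-null. Both ENT1-null arrays lay above both WT arrays at each age, and the 2 ENT1-null arrays at 2 months stood further apart than those of any other group. The difference was 2.14 ± 0.21 (SE) at 6 months (n = 2 and 2, limma adjusted p = 4.739e-04, 95% interval 1.65 to 2.62), and 0.73 ± 0.21 at 2 months (adjusted p = 0.121, 95% interval 0.24 to 1.21; 0.39 without ENT1-null replicate 2 of that age). The effect at 6 months exceeded that at 2 months by 1.41 ± 0.29 (limma adjusted p = 0.0464), in which comparison Il1b alone of the 8 passed, against 4.45% of all genes, 2.56% with a higher and 1.89% with a lower value. That call of the difference between the ages ended in every fit that left out 1 of the 8 arrays (1.07 to 1.75, the extremes coming from the fits without one or the other 2 month ENT1-null array, adjusted p up to 0.148), and with the replicate number as a block (1.41, adjusted p = 0.0562). From 2 to 6 months Il1b rose by 1.88 ± 0.21 in ENT1-null (limma adjusted p = 0.00273). In WT the age difference was 0.47 ± 0.21 (adjusted p = 0.386). The 4 group means ran from 2 month WT (6.53) over 6 month WT (7.0) and 2 month ENT1-null (7.25) to 6 month ENT1-null (9.14), and the arrays of the middle pair overlapped.

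Il1rn encodes the IL-1 receptor antagonist, a secreted protein that binds the IL-1 receptor without signalling and so limits IL-1. It was 6.35 and 6.51 in 2 month WT, 6.98 and 6.90 in 2 month ENT1-null, 6.61 and 6.53 in 6 month WT, and 7.44 and 7.61 in 6 month ENT1-null (log2). Each ENT1-null pair lay above its WT pair; the 4 WT arrays all lay below the 4 ENT1-null arrays. The rise at 6 months was 0.95 ± 0.10 (limma adjusted p = 5.417e-04), and the value at 2 months was 0.51 ± 0.10 (adjusted p = 0.0597). Across both ages, 4 against 4 arrays, Il1rn rose by 0.73 ± 0.11 (limma adjusted p = 0.0074). Agonist and antagonist thus rose together at 6 months, Il1b by the larger log2 difference; that gap between the 2 genes was not tested.

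Tnf encodes tumour necrosis factor, made mainly by macrophages and other leukocytes. Its values were 6.54 and 6.61 in 2 month WT, 6.79 and 7.06 in 2 month ENT1-null, 6.66 and 6.64 in 6 month WT, and 7.47 and 7.46 in 6 month ENT1-null (log2). All 4 WT arrays lay below all 4 ENT1-null arrays. The rise was 0.81 ± 0.10 at 6 months (1.76-fold, limma adjusted p = 9.395e-04) and the value at 2 months was 0.35 ± 0.10 (adjusted p = 0.125). Within ENT1-null Tnf rose with age by 0.54 ± 0.10 (limma adjusted p = 0.0103), a call that ended without 6 month ENT1-null replicate 2 (0.55, adjusted p = 0.0518).

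Il6, the cytokine that signals through gp130 and STAT3, lay far under the filter. It was 3.82 and 3.83 in 2 month WT, 4.13 and 3.90 in 2 month ENT1-null, 3.82 and 3.84 in 6 month WT, and 3.72 and 3.84 in 6 month ENT1-null (log2). The highest and lowest of these 8 values were both ENT1-null arrays. In a fit with no filter its differences were 0.19 ± 0.10 at 2 months (limma adjusted p = 0.433) and −0.06 ± 0.10 at 6 months (adjusted p = 0.726, 95% interval −0.30 to 0.18). The deposited table has no detection call, so that a level near the floor of the array cannot be told from no signal.

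Among the chemokines, Ccl3 (MIP-1 alpha), which draws monocytes and granulocytes through Ccr1, was 6.43 and 6.96 in 2 month WT, 7.02 and 6.98 in 2 month ENT1-null, 6.95 and 6.74 in 6 month WT, and 8.13 and 8.12 in 6 month ENT1-null (log2). The 6 month ENT1-null arrays stood over 1 log2 unit above all others, and the other 6 arrays lay between 6.43 and 7.02. Ccl3 rose by 1.28 ± 0.16 at 6 months (2.43-fold, limma adjusted p = 9.785e-04), and its value at 2 months was 0.31 ± 0.16 (adjusted p = 0.354). The 2 month value was 0.044 without 2 month WT replicate 1 and 0.57 without replicate 2. The 6 month effect was larger by 0.98 ± 0.23 (limma adjusted p = 0.0544). That difference passed with a filter at the 50th percentile (adjusted p = 0.0481), with arrays centred on their medians (1.00, adjusted p = 0.0489) and with a trended, robust variance (adjusted p = 0.045). Its age effect within ENT1-null was 1.12 ± 0.16 (limma adjusted p = 0.00456).

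Ccl2 (MCP-1), the main monocyte attractant and ligand of Ccr2, did not pass at either age. It was 6.74 and 6.98 in 2 month WT, 6.74 and 6.85 in 2 month ENT1-null, 6.59 and 6.84 in 6 month WT, and 6.93 and 6.75 in 6 month ENT1-null (log2), and the genotypes overlapped at both ages. The differences were −0.06 ± 0.13 at 2 months (limma adjusted p = 0.817) and 0.13 ± 0.13 at 6 months (adjusted p = 0.46). The 95% interval at 6 months, −0.17 to 0.42, stood beside 0.90 to 1.66 for Ccl3, and the gap between the 2 genes was not tested. Cxcl2 (MIP-2), a neutrophil attractant and ligand of Cxcr2, lay under the filter with 8 values between 5.80 and 6.14. With no filter it gave 0.10 ± 0.10 at 2 months (limma adjusted p = 0.69) and 0.08 ± 0.10 at 6 months (adjusted p = 0.635).

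Cxcl12 (SDF-1) is the ligand of Cxcr4 that holds blood stem cells and neutrophils in the marrow, and is made by stromal cells. Of the 2 ages it passed at 6 months only, though ENT1-null arrays lay above WT arrays at both. It was 8.84 and 9.79 in 2 month WT, 10.53 and 10.76 in 2 month ENT1-null, 9.99 and 9.83 in 6 month WT, and 11.43 and 11.33 in 6 month ENT1-null (log2). All ENT1-null arrays lay above all WT arrays, and 2 month WT replicate 1 stood almost 1 log2 unit below the next. The rise at 6 months was 1.47 ± 0.27 (2.77-fold, limma adjusted p = 0.00419), and the value at 2 months was 1.33 ± 0.27 (adjusted p = 0.0624). Without 2 month WT replicate 2 the 2 month value was 1.81 and passed (adjusted p = 0.0203), and without 2 month WT replicate 1 it was 0.85 (adjusted p = 0.252), so that this value rests on which WT array is used. The ages differed by 0.14 ± 0.38 (limma adjusted p = 0.856, 95% interval −0.74 to 1.02). Across ages Cxcl12 rose by 1.40 ± 0.19 (4 against 4 arrays, limma adjusted p = 0.00685). Its age difference in ENT1-null was 0.73 ± 0.27 (adjusted p = 0.0923), and passed with only the groups compared (adjusted p = 0.00938) or without either 2 month WT array (adjusted p = 0.0082).

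Ptgs2 encodes cyclooxygenase 2, the inducible enzyme that makes the prostaglandin precursor. Ptgs2 was lower at 6 than at 2 months in both genotypes, and this passed in ENT1-null only. It was 8.94 and 8.76 in 2 month WT, 9.07 and 9.14 in 2 month ENT1-null, 8.25 and 8.29 in 6 month WT, and 7.97 and 8.08 in 6 month ENT1-null (log2). ENT1-null arrays were the highest at 2 months and the lowest at 6 months, and no 2 groups overlapped. In ENT1-null Ptgs2 fell with age by 1.08 ± 0.09 (2.11-fold, limma adjusted p = 0.00213), where 22.2% of all genes passed in either direction and 10.2% were lower. In WT the age difference was −0.58 ± 0.09 (adjusted p = 0.162, unadjusted p = 3.130e-04); in that comparison 0% of all genes passed in limma and 2067 had an unadjusted p below 0.05. ENT1-null less WT was 0.26 ± 0.09 at 2 months (limma adjusted p = 0.198) and −0.24 ± 0.09 at 6 months (adjusted p = 0.0767). The 6 month value passed when quantile normalization was applied again (−0.31, adjusted p = 0.0396). The difference between these opposite signs was −0.50 ± 0.13 (limma adjusted p = 0.0683), and the mean effect across ages was 0.01 ± 0.11 (adjusted p = 0.969).

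Nos2 encodes the inducible nitric oxide synthase. It was 7.0 and 6.81 in 2 month WT, 6.68 and 6.80 in 2 month ENT1-null, 6.88 and 7.05 in 6 month WT, and 6.70 and 6.73 in 6 month ENT1-null (log2). ENT1-null arrays lay below WT arrays at both ages, at 2 months only narrowly. The differences were −0.17 ± 0.10 (limma adjusted p = 0.416) and −0.25 ± 0.10 (adjusted p = 0.0968), and across ages −0.21 ± 0.08 (adjusted p = 0.0759, lower in 4 of 4 arrays). ENT1-null and WT arrays stood apart in 7 of the 8 tested genes at 6 months, 5 above and 2 below, where 72.3% of all genes stood apart, 35.6% above and 36.8% below. At 2 months they stood apart in 7 of the 8 too, 6 above and 1 below, against 52.3% of all genes, 19% above and 33.2% below.

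Across both ages, in the fit with genotype and age as terms, 5 of 8 genes were called higher and 0 lower, against 24.5% of all genes, 12.8% higher and 11.7% lower. ENT1-null and WT stood apart over both ages in 5 of the 8, 4 above and 1 below, where 23% of all genes did, 12.6% above and 10.4% below. The 5 called were Il1b, Il1rn, Tnf, Ccl3 and Cxcl12, as at 6 months. With age, 0 of 8 passed in WT (limma; 1, Ptgs2, had an unadjusted p below 0.05). The WT arrays of the 2 ages stood apart in 5 of the 8, 4 above and 1 below, against 49.4% of all genes, 13.5% above and 35.9% below. In ENT1-null 4 rose with age (Il1b, Il1rn, Tnf and Ccl3) and Ptgs2 fell, where 11.9% of all genes rose. The ENT1-null arrays of the 2 ages stood apart in 6 of the 8, 5 above and 1 below, against 59.8% of all genes, 30% above and 29.8% below. Comparisons that use the same group share its arrays, as those at 6 months and with age in ENT1-null do.

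The calls across ages of Ccl3 (0.79 ± 0.21, limma adjusted p = 0.0289) and Il1b (1.43 ± 0.29, adjusted p = 0.0133) did not hold in every fit without 1 array. Such fits have fewer degrees of freedom, and their Ccl3 values ran from 0.66 to 1.00. Ccl3 did not pass on leaving out 2 month WT replicate 1 (0.79), either 6 month WT array (0.74 for replicate 1, 0.66 for replicate 2), or 6 month ENT1-null replicate 1 or 2 (0.70 in each case). Il1b did not pass without 6 month WT replicate 1 (1.35, adjusted p = 0.0512).

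**Figure D2:**
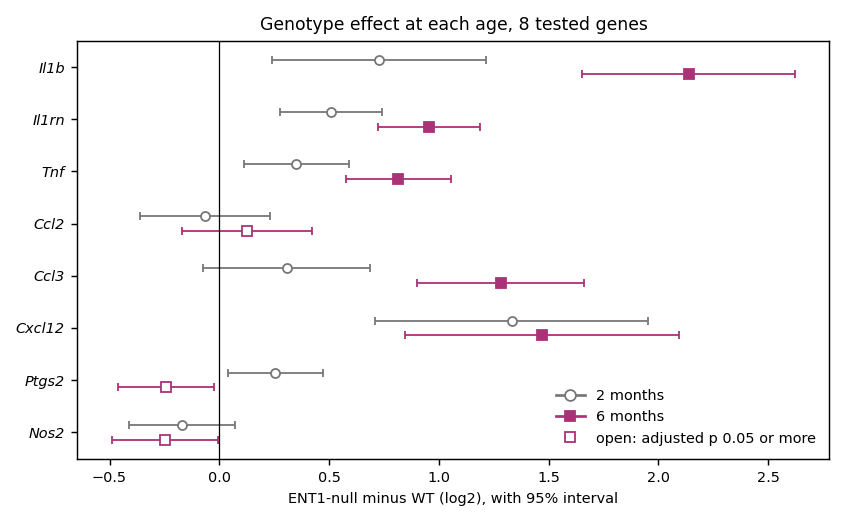
ENT1-null minus WT (horizontal axis, log2) for the 8 tested genes at 2 months (grey circles) and 6 months (purple squares), with the 95% interval of the limma fit; filled symbols passed at adjusted p below 0.05. Il1b, Il1rn, Tnf, Ccl3 and Cxcl12 are filled at 6 months, no gene is filled at 2 months, and the Ptgs2 symbols lie on opposite sides of 0.

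The receptors of these products moved in both directions in the ENT1-null annulus. Of 17 listed receptors 14 were tested, and at 6 months 7 were higher, 3 lower and 4 did not pass (median 0.56). Of all genes 21.2% were higher and 17.6% lower at that age. At 2 months 1 was lower and 13 did not pass (median 0.15), against 0.386% of all genes lower. The chemokine receptors of leukocytes rose most at 6 months. Ccr1, the receptor of Ccl3, was 5.95 and 5.31 in 6 month WT and 7.84 and 7.44 in ENT1-null (log2), a difference of 2.00 ± 0.23 (limma adjusted p = 6.713e-04). Its WT means, 5.62 and 5.63, lay under the filter level at both ages, so that Ccr1 was tested only through the higher ENT1-null arrays, and so did the 6 month WT mean of Il1r2 (5.92). Ccr2, the receptor of Ccl2, rose by 1.69 ± 0.22, although Ccl2 did not pass. The decoy receptor Il1r2, which traps IL-1, the TNF receptor Tnfrsf1b and the prostaglandin E2 receptor Ptger4 rose by 1.39 ± 0.22, 1.18 ± 0.20 and 0.86 ± 0.12.

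For the ligand Cxcl12 the signalling and the scavenging receptor went opposite ways. Cxcr4, which is found on most marrow cells, was 8.96 and 7.88 in 6 month WT and 10.70 and 10.68 in 6 month ENT1-null, a rise of 2.27 ± 0.38 (limma adjusted p = 0.00308). Ackr3, the receptor that removes Cxcl12, was 9.77 and 9.84 in WT against 8.69 and 8.58 in ENT1-null, and fell by 1.17 ± 0.08 (adjusted p = 3.830e-04). The WT arrays of Cxcr4 lay over 1 log2 unit apart, while those of Ackr3 lay close together. At 2 months Cxcr4 gave 1.28 ± 0.38 (adjusted p = 0.133) and Ackr3 −0.21 ± 0.08 (adjusted p = 0.233). The Ackr3 effect was larger at 6 months by −0.97 ± 0.12 (limma adjusted p = 0.0356), a call that ended in 7 of the 8 fits without 1 array (−1.02 to −0.91). Cxcr2, the neutrophil receptor of Cxcl2, rose by 2.69 ± 0.37 at 6 months.

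Il1r1, the signalling receptor of IL-1, fell while its ligand rose. It was 9.88 and 9.81 in 6 month WT against 9.13 and 9.06 in ENT1-null, and fell by 0.75 ± 0.09 (limma adjusted p = 7.758e-04). Il1rap, its partner chain, gave 0.22 ± 0.11 (adjusted p = 0.165) and Tnfrsf1a, the widely expressed TNF receptor, 0.26 ± 0.11 (adjusted p = 0.104). Il6ra, the specific receptor of Il6, was the receptor called at 2 months. It was 9.91 and 9.67 in WT against 8.91 and 8.73 in ENT1-null at 2 months, and fell by 0.97 ± 0.13 (limma adjusted p = 0.0434). At 6 months, with 8.96 and 9.18 in WT against 9.11 and 8.93 in ENT1-null, the genotypes overlapped (−0.05 ± 0.13, adjusted p = 0.778). The 2 month fall differed from the 6 month value by 0.91 ± 0.18 (limma adjusted p = 0.0433). In fits without 1 array the fall ranged from −1.09 to −0.84 and the difference from 0.79 to 1.04. Neither call held in all such fits. Il6st, the shared chain gp130, fell by 0.25 ± 0.08 at 6 months and passed in 2 of 8 such fits (−0.27 to −0.24).

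**Figure D3:**
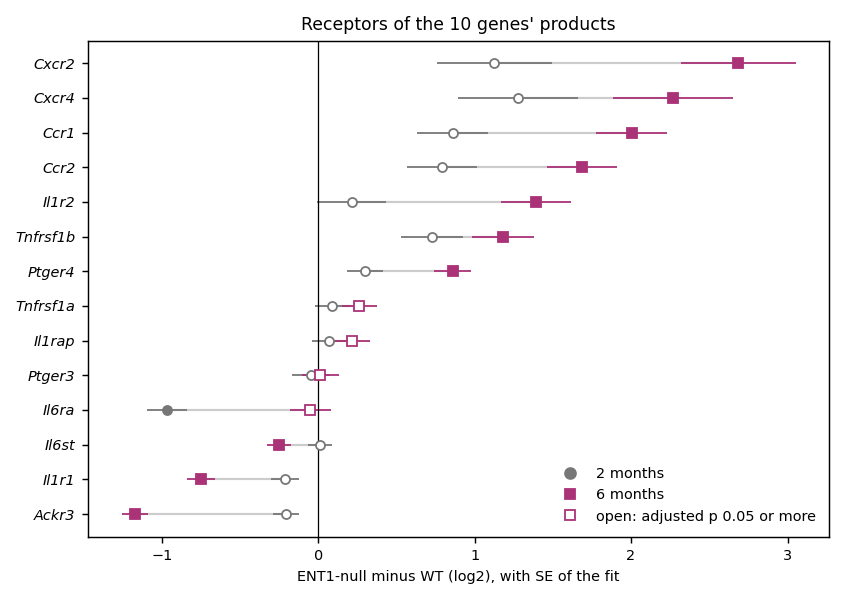
ENT1-null minus WT (horizontal axis, log2) of the 14 tested receptors at 2 months (grey circles) and 6 months (purple squares), with the SE of the fit; filled symbols passed at adjusted p below 0.05 and a line joins the ages. Cxcr2, Cxcr4, Ccr1 and Ccr2 have the largest rises at 6 months, Ackr3 the largest fall, and Il6ra alone is filled at 2 months.

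The counts of the pathway lists at 6 months are to be read against the 38.8% of all genes called there, 21.2% higher and 17.6% lower. The IL-1 family and inflammasome list (19 genes, 9 tested, median 0.66 at 6 months) had 6 genes higher, 1 lower and 2 not passing at 6 months, and 0 called at 2 months. Sensors and executioners of the inflammasome were among those that rose: Aim2, a sensor of cytosolic DNA, by 1.68 ± 0.13, Casp4, the caspase that senses lipopolysaccharide, by 1.44 ± 0.12, and Gsdmd, the pore protein that releases IL-1, by 0.93 ± 0.11. Aim2 was 6.49 and 6.16 in 6 month WT and 7.98 and 8.03 in ENT1-null. Il33, an alarmin of stromal cells, fell by 0.74 ± 0.09. Casp1, Nlrp3 and Il1a lay under the filter.

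In the NF-kB list (26 genes, 22 tested, median 0.18 at 6 months) 7 rose, 0 fell and 15 missed the threshold at 6 months. The called share lay below the 38.8% of all genes in either direction, but all 7 calls were higher, where 21.2% of all genes were. At 2 months 0 passed. Irak3, an inhibitory kinase of the IL-1 receptor path, rose by 1.06 ± 0.12, Rel, an NF-kB subunit of leukocytes, by 1.02 ± 0.12, and Myd88, the adaptor of the IL-1 receptor, by 0.95 ± 0.12. Nfkbia and Tnfaip3, the inhibitors that NF-kB itself induces, were looked at after their values were seen and did not pass. Nfkbia gave 0.07 ± 0.14 (limma adjusted p = 0.726) and Tnfaip3 0.09 ± 0.10 (adjusted p = 0.52) at 6 months.

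Of the other chemokines (24 genes, 16 tested, median 0.38) 6 were higher, 1 lower and 9 did not pass at 6 months, with 0 called at 2 months. Ccl6 rose by 2.42 ± 0.33 and Ccl9 by 1.36 ± 0.13, both chemokines of myeloid cells in the mouse. Pf4, the platelet factor, rose by 1.79 ± 0.38, a call that ended without 6 month WT replicate 2 (1.52). Ccl11, eotaxin, fell by 0.55 ± 0.10.

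In the IL-6 and STAT3 list (16 genes, 14 tested, median 0.10) 4 rose, 1 fell and 9 missed the threshold at 6 months. The called share lay near the 38.8% of all genes in either direction, of which 21.2% were higher and 17.6% lower. Pim1, a kinase that STAT factors induce, rose by 1.62 ± 0.15, Jak1 by 0.55 ± 0.09 and Tyk2, another Janus kinase, by 0.32 ± 0.09. Osmr, the oncostatin M receptor, fell by 0.41 ± 0.11. Tyk2 and Osmr passed in 5 of 8 fits without 1 array, with values of 0.25 to 0.39 and −0.48 to −0.33. Socs3, the feedback inhibitor that STAT3 induces, gave −0.30 ± 0.12 (limma adjusted p = 0.0775) and was looked at after its value was seen.

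In the TNF superfamily list (17 genes, 13 tested, median 0.27) 5 were higher, 1 lower and 7 did not pass at 6 months. Tnfsf13b, the B cell survival factor BAFF, rose by 1.75 ± 0.18, Casp8, the initiator caspase of death receptors, by 0.69 ± 0.11 and Tnfrsf11a, the receptor RANK, by 0.44 ± 0.11. Tnfrsf11b, the RANKL decoy osteoprotegerin, fell by 0.78 ± 0.20, with values from −1.12 to −0.43 when 1 array was left out. Tnfrsf11a and Tnfrsf11b each passed in 6 of 8 such fits.

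The prostaglandin and leukotriene list (17 genes, 15 tested, median 0.56) had 9 genes higher, 3 lower and 3 not passing at 6 months, and 0 called at 2 months. Tbxas1, thromboxane synthase, rose by 1.62 ± 0.15, Lta4h, of leukotriene B4 synthesis, by 1.62 ± 0.21 and Hpgds, the prostaglandin D synthase of blood cells, by 1.38 ± 0.14, with WT means of 6.07 at both ages, under the filter level. The synthases Ptgis (prostacyclin, −0.49 ± 0.09), Ptgds (the lipocalin-type prostaglandin D synthase, −1.02 ± 0.19) and Ptges (prostaglandin E, −0.40 ± 0.13) fell. Ptges, which acts on the product of Ptgs2, passed in 2 of 8 fits without 1 array (−0.47 to −0.33). Thus synthases that use the same precursor went both up and down.

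In the nitric oxide and arginine list (11 genes, all tested, median −0.18) 2 were higher, 3 lower and 6 did not pass at 6 months. Of all genes 38.8% were called, 21.2% higher and 17.6% lower, so the called share lay near that of all genes. Gch1, which makes the cofactor of nitric oxide synthases, rose by 1.30 ± 0.14 and Arg2, an arginase that uses the same substrate, by 1.45 ± 0.15. Nos1, the neuronal synthase, was 7.82 and 7.86 in 6 month WT against 6.81 and 6.95 in ENT1-null, and fell by 0.96 ± 0.09 (limma adjusted p = 4.267e-04). At 2 months it fell by 0.55 ± 0.09 (adjusted p = 0.0443), a call that held in 2 of 8 fits without 1 array (−0.59 to −0.51). Ddah1, which degrades an inhibitor of nitric oxide synthases, fell by 0.86 ± 0.09 and its relative Ddah2 by 0.32 ± 0.10, the latter in 5 of 8 such fits (−0.43 to −0.21).

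Further effectors linked with disc degeneration (18 genes, 11 tested, median 0.36) included 5 genes higher, 2 lower and 4 not passing at 6 months. Il17ra, the IL-17 receptor, rose by 1.54 ± 0.17, Mmp9, the gelatinase of neutrophils and osteoclasts, by 1.88 ± 0.38 and Timp1, a protease inhibitor, by 1.17 ± 0.15. Vegfa fell by 0.74 ± 0.14, and Timp3 by 0.32 ± 0.11, which passed in 1 of 8 fits without 1 array (−0.43 to −0.21). Timp1 was called at 2 months as well (1.03 ± 0.15, limma adjusted p = 0.0443), a call kept in 3 of 8 such fits (0.85 to 1.22). Over all these pathway lists 66 of 124 tested genes were called at 6 months, against 38.8% of all genes. Not all of these calls held when 1 array was left out. The lists were chosen with earlier results of these data known, so the 2 shares are not an independent comparison.

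Markers of leukocytes were read beside these genes on the same arrays. The log2 of the summed signal of 16 neutrophil markers was 13.1 and 14.2 in 2 month WT, 14.9 and 15.2 in 2 month ENT1-null, 14.4 and 12.95 in 6 month WT, and 15.8 and 15.8 in 6 month ENT1-null. That of the 15 measured monocyte and macrophage markers, which include Cd163 under the filter, ranged from 12.7 to 13.3 in 2 month WT, 13.59 to 13.76 in 2 month ENT1-null, 12.8 to 13.2 in 6 month WT and 14.3 to 14.3 in 6 month ENT1-null. All 16 neutrophil markers were higher at 6 months (median 2.53), as were 12 of 14 markers of monocytes and macrophages (median 1.47), 7 of 7 erythroid markers (median 2.20) and 6 of 6 tested markers of mast cells, basophils and eosinophils (median 2.73). Of all genes 21.2% were higher at 6 months and 0.296% at 2 months. At 2 months 0 of 16 neutrophil and 0 of 14 monocyte and macrophage markers passed, with medians of 1.5 and 0.85, while 1 of 7 erythroid markers (median 1.32) and 2 of 6 markers of mast cells, basophils and eosinophils (median 1.35) were higher. Of the last list Mcpt8 and Ccr3 had WT means under the filter level at both ages. Its mast cell genes Mcpt4, Tpsb2 and Cma1, and Ms4a2, lay under the filter and were not tested. Of B cell markers 7 of 8, of T and NK cell markers 3 of 5 and of osteoclast markers 7 of 7 were higher at 6 months. Another 5 of the 10 measured T and NK cell markers lay under the filter. The part of these cells in the levels of Il1b, Il1rn, Tnf, Ccl3 and the receptors was not tested. In bulk RNA more cells of a type and more RNA per cell cannot be told apart.

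Cxcl12 is a gene of stromal and endothelial cells, and their markers were read beside it. Of 9 tested markers of marrow stroma and adipocytes 3 were higher and 2 lower at 6 months (median 0.37), and of 9 endothelial markers 2 were higher (median 0.41). Of all genes 21.2% were higher and 17.6% lower at 6 months, so the endothelial count lay near the share of all genes. The summed signal of the 10 measured stromal markers, 1 of them under the filter, ranged from 11.4 to 11.6 in 2 month WT, 11.7 to 11.8 in 2 month ENT1-null, 11.6 to 11.7 in 6 month WT and 11.9 to 12.1 in 6 month ENT1-null. All 14 markers of annulus and cartilage passed the filter, but so did all 16 neutrophil and all 10 skeletal muscle markers. Passing the filter thus does not check the labelled tissue. Of the 14 annulus and cartilage markers, 10 were lower and 1 higher at 6 months (median −0.82). Their summed signal was 15.6 in both 6 month WT arrays and 15.2 and 15.0 in ENT1-null. Of 10 skeletal muscle markers 9 were lower at 6 months (median −2.41), but at 2 months 0 passed and the median was 1.06. The summed muscle signal was 11.5 and 12.8 in 2 month WT and 13.96 and 13.86 in 6 month WT. The part of these shifts in the falls of Il1r1, Ackr3, Il33, Vegfa and Nos1 was not tested.

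**Figure D4:**
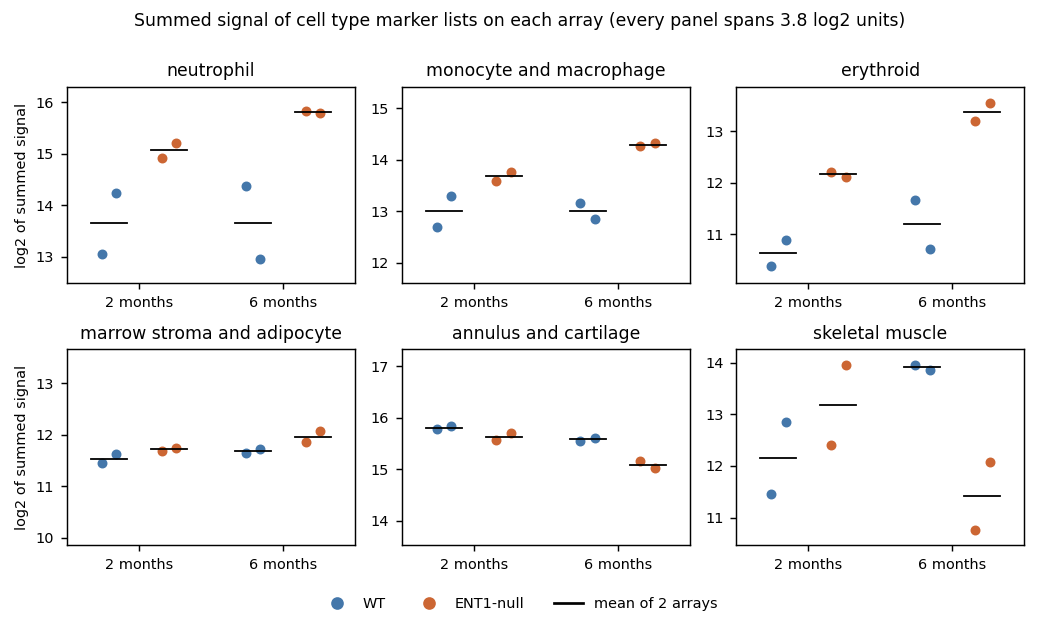
Log2 of the summed signal (vertical axis) of 6 marker lists on the 8 arrays, by age, with WT in blue, ENT1-null in orange and a bar at the mean of the 2 arrays; every panel spans the same number of log2 units. Neutrophil, monocyte and macrophage, and erythroid signals are highest on the 6 month ENT1-null arrays, where the annulus signal is lowest; the muscle signal there, 10.8 and 12.1, overlaps that of the 2 month WT arrays (11.5 and 12.8).

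The genes most like each of the 8 over the 8 arrays were found by Pearson r among the 15526 tested genes, as a description of arrays that fall into 4 groups. For Il1b they were Phf20l1 and Gtse1 (r = 0.994 and 0.993), for Il1rn Cpox and Trak2 (0.997 and 0.997), for Tnf Hcfc1 and Bmx (0.997 and 0.994), and for Ccl3 St6gal1 and Taok3 (0.996 and 0.993). For Cxcl12 they were Ifitm3 and Dach1 (0.993 and 0.990). Ptgs2 was most like Ccnd2 and Col10a1 (0.971 and 0.970), and Nos2 most like Misp and Maneal (0.985 and 0.969). Ccl2, whose groups overlapped, had the lowest best values, with Oxsm and Ppp5c (0.948 and 0.936).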

How the data were processed

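Total RNA from 8 pools of thoracic annulus fibrosus was hybridised to Affymetrix arrays. The authors deposited log2 values per probe set, normalized by RMA per the submitters' processing notes, with no version or settings given in the sources used here. RMA equalises the arrays' distributions, so changes are relative to the bulk of genes, and the number of arrays limits the precision. Of 41345 probe sets 23521 name 1 gene, 1814 several and 16010 none. The single-gene probe set with the highest mean stood for each of 22180 genes, and 15526 passed the filter of 6.21 (30th percentile). Here limma 3.58.1 in R 4.3.3 fitted 4 group means (4 residual df), or genotype and age as terms (5 residual df) for the comparison across ages, with Benjamini-Hochberg adjustment over all tested genes and a threshold of 0.05. Errors are SE. The fit was tested on simulated data for the genotype effect at 6 months, with independent noise and 100 of 15526 genes changed by each size. It recovered 83% of changes of 1 and 98% of changes of 2 log2 units, with 10 false calls. Far more genes were called in the data, so these rates may not hold there. The members and gene lists were chosen with earlier results of these data known. In pathway lists the 3 called genes with the largest moderated t at 6 months in each direction are named, receptors by role, and the 2 genes most alike to each member, passing over predicted genes and olfactory receptors. Alternatives covered filters, normalization, probe set choice, variance model, the replicate number as a block and leaving out each array.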

Additional observations from a re-analysis of the deposited data

Results flagged for a closer look

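The genotype effect on Il1b differed between the ages by 1.41 (log2, limma adjusted p = 0.0464), with both 6 month ENT1-null arrays above every other array, and this difference lost its call whenever 1 array was left out (1.07 to 1.75).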

How the results depend on the processing

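Il1b, Il1rn, Tnf, Ccl3 and Cxcl12 kept their call at 6 months in every alternative that tested them, and a filter at the 50th percentile left 3 of the 5 because Il1rn and Tnf were no longer tested. The same filter left 3 calls across ages and 3 with age in ENT1-null. Leaving out 1 array gave 5 to 5 member calls at 6 months, 0 to 1 at 2 months, 3 to 5 across ages, 4 to 6 with age in ENT1-null, 0 to 0 with age in WT and 0 to 0 for the difference between the ages. For that difference 0 members passed with no filter, 0 with quantile normalization applied again and 0 with the replicate number as a block, and 2 (Il1b and Ccl3) with the 50th percentile filter, with centred arrays and with a trended, robust variance; the cause was not tested.

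Over all genes, the 106 calls at 2 months became 29 with no filter, 161 with centred arrays (96 higher, 65 lower, against 46 and 60), 259 with a trended, robust variance, 0 with only the groups compared, 1 with the replicate block and 0 to 358 without 1 array (358 without 2 month WT replicate 2). The 691 calls of the difference became 11 with no filter, 1102 with the trended, robust variance, 353 with the replicate block and 0 to 319 without 1 array. Without 1 array the calls ranged from 3670 to 5887 at 6 months (6022 with all), from 1390 to 4343 across ages (3809) and from 1519 to 3160 with age in ENT1-null (3442). Same-numbered arrays did not deviate together in all pairs of groups (r of deviations from −0.39 to 0.41). Between the genotypes r was 0.41 at 2 months and −0.15 at 6 months, so the check cannot tell if the numbers pair arrays. The block changed no member call other than that of the Il1b difference.

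Small differences changed sign. Ptgs2 across ages was −0.036 with quantile normalization applied again and −0.078 to 0.079 without 1 array. Without 1 array Ccl2 gave −0.039 to 0.13 with age in ENT1-null, −0.038 to 0.099 across ages and −0.19 to 0.056 at 2 months. Ccl3 gave −0.12 to 0.41 with age in WT, and the Cxcl12 difference between ages −0.34 to 0.61. Nos2 gave −0.080 to 0.033 with age in ENT1-null, −0.041 to 0.15 with age in WT and −0.17 to 0.018 for the difference between ages. With 2 arrays a group, a lone array left in a group was assumed to vary like the others.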
